A study of Mus musculus with 12 samples.

Results

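The transcriptome described here is that of the TRAMP-C2 tumors that received only HBSS, the Hank's balanced salt solution used as vehicle, taken as the 3 tumors whose treatment label reads HBSS, of 12 sequenced in all. TRAMP-C2 is an established cell line derived from a prostate tumor of the TRAMP transgenic mouse. The hosts were male C57BL/6J mice aged 6 to 8 weeks, which carried the cells under the skin of the right flank. Once tumors had reached about 200 mm3 they were injected directly with 3 doses of 50 µl HBSS given on alternate days, and they were removed on day 6. The other 9 tumors, 3 in each of 3 groups, came from the same model and day and received 2 doses of 10 µg cyto-IL-15, a form of interleukin-15 that localizes to membranes, or 3 doses of 50 µg ADU-S100, an agonist of the DNA-sensing adaptor STING, or the combination of both agents. As a model the group is limited to 1 cell line grown outside the prostate, in hosts with an intact immune system, so each sample holds transplanted cancer cells together with mouse stroma and leukocytes that share its genome. In whole-tumor RNA, fewer cells of a type and less RNA per cell cannot be told apart. The labels do not say what the tumor names 19, 22R and 22LL stand for or whether each tumor came from a separate mouse.

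In such tumors the RNA of an epithelial or mesenchymal cancer cell is mixed with that of fibroblasts, which deposit collagen, of vessels, and of infiltrating leukocytes. Epithelial cells are held together by E-cadherin and contain keratin filaments, whereas cells that have passed through an epithelial-to-mesenchymal transition express vimentin, N-cadherin and the transcription factors of the Snail, Zeb and Twist families. Luminal prostate cells secrete proteins such as probasin and prostatic acid phosphatase. Macrophages of solid tumors are recognized by lysozyme, complement C1q and the receptor for colony-stimulating factor 1, and they present antigen on MHC class II.

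The HBSS tumors yielded 61269250 (tumor 19), 75857377 (tumor 22R) and 89374663 (tumor 22LL) counted reads, within the 48772204 to 103700199 of the 12 tumors. Levels are given as TPM, the count of a gene divided by its length and scaled so that all genes of a tumor sum to 1000000, and where 3 values follow a gene they are for tumors 19, 22R and 22LL in that order. Of 21811 protein-coding genes, 12367 reached 1 TPM in all 3 tumors, and 14791 of 49315 genes had no read in any. At these depths 1 TPM of a transcript of 2000 bases corresponded to 42.9, 47.3 and 55.0 reads. The class annotated as miRNA, chiefly the 57-base gene Gm23935 (109599, 49580 and 15827 TPM), took 12.1%, 5.49% and 1.91% of all TPM. Such a share lowers the TPM of all other genes, and the median protein-coding gene lay 0.11 log2 units under the 3-tumor mean in tumor 19 and 0.02 and 0.09 above it in 22R and 22LL. Deviations of gene lists are therefore given relative to these medians. No test was made among the 3 tumors, because each is a single sample.

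The most abundant protein-coding transcripts combined the translation and energy machinery of growing cells with products of matrix and macrophages. The highest was Eef1a1, the elongation factor that carries aminoacyl-tRNA to the ribosome, at 8892 ± 1275 TPM (SD, n = 3). It was followed by Lgals1, which encodes the secreted lectin galectin-1, at 8651 ± 1739 TPM, and by the mitochondrially encoded mt-Co1 at 7758 ± 1521 TPM. The fourth was Apoe, the lipid carrier made in quantity by macrophages, at 5882 ± 675 TPM. Of the 30 highest protein-coding genes, 9 encoded ribosomal proteins, led by Rps12 (5141 ± 713 TPM), Rplp1 (5013 ± 577 TPM) and Rplp0 (4884 ± 576 TPM), and 4 were mitochondrially encoded, with mt-Nd1, mt-Cytb and mt-Nd2 at 5790 ± 1124, 5011 ± 737 and 2817 ± 485 TPM. Together the 30 genes took 14.9%, 14.4% and 14.2% of protein-coding TPM in the 3 tumors.

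Genes that mark particular cells were found among these same 30. Lyz2, the lysozyme of macrophages, stood at 4463 ± 293 TPM, next to Col1a1, the main chain of fibrillar collagen, at 4403 ± 472 TPM. The matrix proteoglycan gene Dcn reached 3029 ± 854 TPM and was higher in 22R (3984) than in 19 (2340) and 22LL (2763). Cd74, the invariant chain of MHC class II, had 4591, 2185 and 3600 TPM, and was the single member of the 30 whose highest tumor exceeded its lowest by more than 2 times (2.10). B2m, the light chain of MHC class I, had 3495, 3252 and 3975 TPM. The remainder were housekeeping and lysosomal genes, among them Actb, Eef2, Hsp90ab1, Tmsb4x, Fth1, Cd63, Ptma, Psap and Actg1, with means from 2646 to 4390 TPM. The mitochondrial values were uneven, since mt-Co2, mt-Co3 and mt-Atp6 had 2.86 to 6.54 TPM far below mt-Co1. The handling of reads that fit several places is not given in the sources used here, so such differences between genes with near-identical copies are uncertain.

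**Figure D1:**
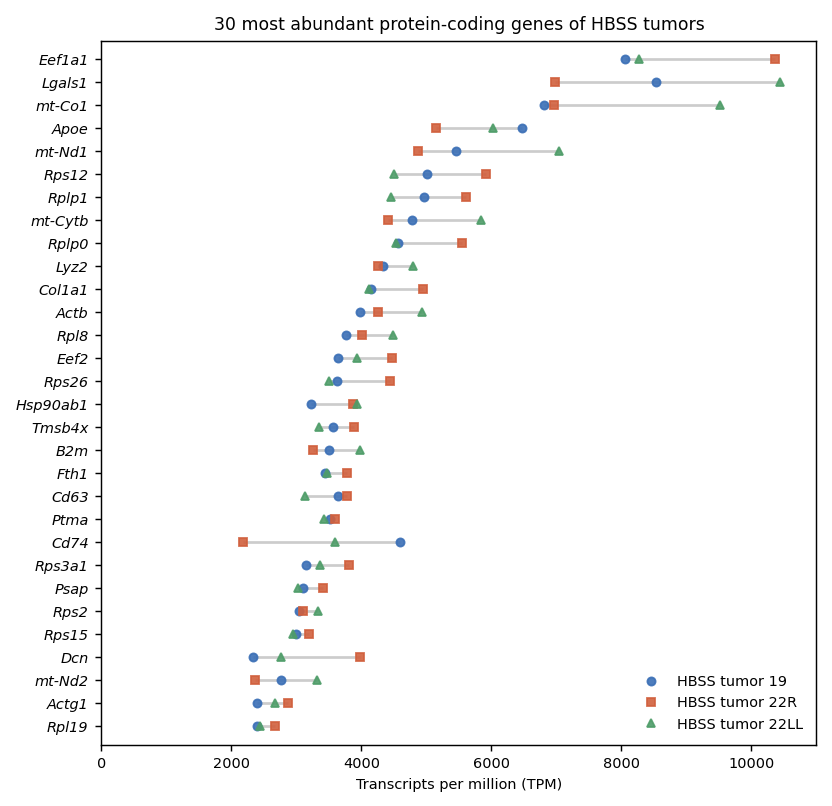
TPM (horizontal axis, linear from 0) of the 30 protein-coding genes with the highest mean in the 3 HBSS tumors, 1 point for each tumor, with a grey line spanning the 3 values. Most genes span a narrow range, whereas Cd74 runs from 2185 in tumor 22R to 4591 in tumor 19 and Dcn from 2340 in tumor 19 to 3984 in tumor 22R.

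In whole-tumor RNA, mesenchymal markers were far above epithelial ones. The share of these markers that came from cancer cells, and not from host stroma or leukocytes, was not tested. All 12 genes of the mesenchymal transition list exceeded 1 TPM in every tumor, with a median of 49.3 TPM. The extracellular proteins Sparc (2375, 2550 and 2219 TPM) and Fn1 (1637, 2062 and 1663 TPM) and the filament protein Vim (1446, 1861 and 2027 TPM) ranked 34, 54 and 55 among all genes. Transcription factors of the transition were also present, with Twist1 at 99.0, 91.7 and 105 TPM, Snai1 at 40.2, 51.6 and 41.8 TPM and Zeb1 at 37.2, 51.2 and 40.3 TPM. Cdh2, which encodes N-cadherin, had 10.9, 16.3 and 23.6 TPM.

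Epithelial markers were low, with 4 of 18 above 1 TPM in all 3 tumors and 10 of 18 under 1 TPM in all 3. Cdh1, encoding E-cadherin, had 2.48, 1.91 and 2.38 TPM, below Cdh2 in each tumor. Epcam, an adhesion molecule of simple epithelia, had 0.435, 0.663 and 0.909 TPM, from 19, 32 and 51 reads. Several keratins set tumor 22LL apart. Krt8 had 10.1 and 11.8 TPM in tumors 19 and 22R and 265 TPM in 22LL. Krt19 was counted 0 and 4 times in tumors 19 and 22R, where 3 reads amount to 0.0755 and 0.0684 TPM, and 2464 times in 22LL (48.3 TPM). Krt14, a keratin of basal epithelium, was counted 7, 1 and 11471 times (0.186, 0.0240 and 237 TPM). Krt18, the usual partner of Krt8, stayed at 0.300, 0.242 and 2.29 TPM. Of 53 keratin genes in all, 46 were under 1 TPM in every tumor, and the keratin sum was 29.7 TPM in tumor 19, hardly more in 22R and 602 TPM in 22LL.

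Prostate lineage genes split into a group with sizeable levels and a group with almost no reads. Acpp, prostatic acid phosphatase, reached 206, 301 and 194 TPM, Steap1, a membrane protein, 103, 127 and 116 TPM, and Sox9, a transcription factor of progenitor cells, 75.1, 112 and 89.7 TPM. Fkbp5, a steroid-responsive gene, had 75.7, 87.6 and 73.3 TPM. By contrast Pbsn (probasin) was represented by 1, 0 and 0 reads, Tmprss2 by 1, 2 and 3, and Hoxb13 by 17, 21 and 2. In all, 10 of 17 prostate genes were under 1 TPM in every tumor. The luminal marker Pbsn was therefore at or near 0 although the tumors are labelled prostate, while Acpp was not.

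Of the neuroendocrine list, 3 of 12 genes exceeded 1 TPM throughout. Ncam1, a neural adhesion molecule, had 28.3 to 31.1 TPM, and Chga, the granule protein chromogranin A, had 14.6, 56.0 and 12.1 TPM with 22R above the other two. Scg2, which encodes the granule protein secretogranin II, had no read in any tumor, which allows up to 0.0557 TPM in tumor 19, the shallowest. Positional identity was also recorded by the Hox genes, which pattern the body axis, since 26 of 39 exceeded 1 TPM in every tumor. The highest were Hoxb7 (41.0, 38.9 and 44.3 TPM), Hoxd8 (31.0, 39.8 and 39.1 TPM) and Hoxd9 (27.0, 28.5 and 34.2 TPM). Of the posterior genes, Hoxa13 (8.70, 7.81 and 7.21 TPM) and Hoxd13 (6.80, 7.49 and 5.85 TPM) were present in each tumor, whereas Hoxb13 and Hoxc13 were under 1 TPM.

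**Figure D2:**
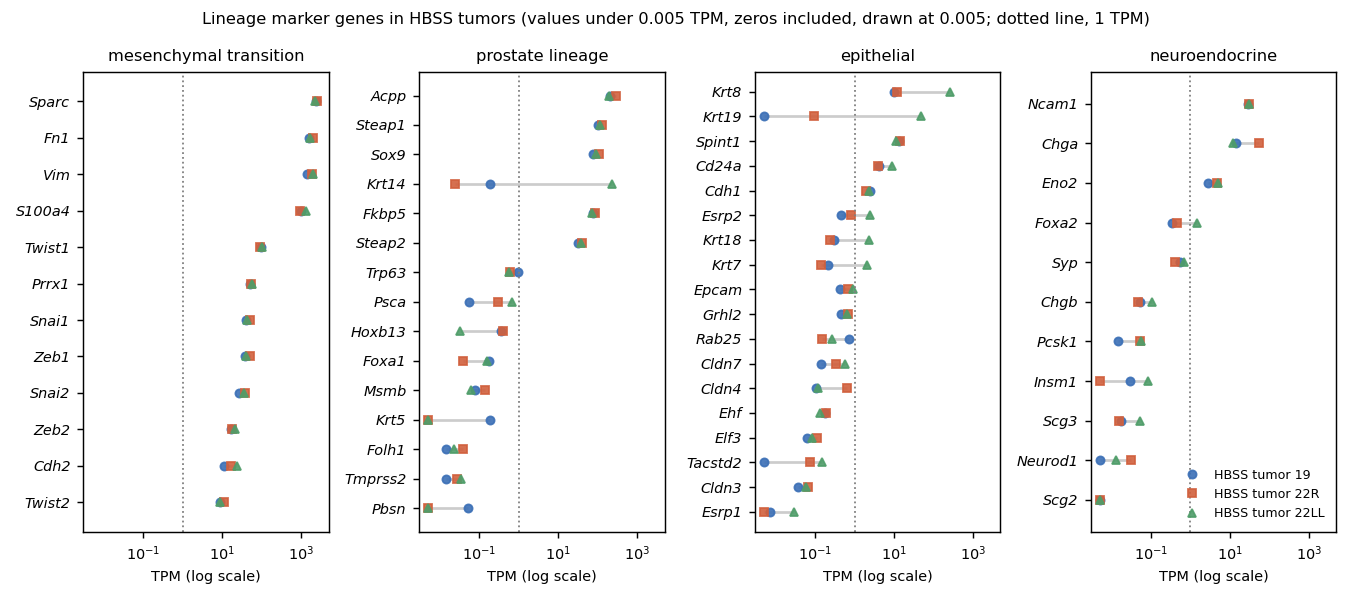
TPM on a log axis for genes of the mesenchymal transition, prostate, epithelial and neuroendocrine lists, without those not reported here, 1 point for each HBSS tumor, with values under 0.005 TPM drawn at 0.005 and a dotted line at 1 TPM. All mesenchymal genes lie to the right of the line, and Krt8, Krt19 and Krt14 are spread widely because tumor 22LL stands above the others.

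Genes of cell growth were expressed in the whole tumors, and the cells that expressed them were not identified. All 18 proliferation genes exceeded 10 TPM in every tumor, including the replication clamp Pcna (187, 182 and 247 TPM), the topoisomerase Top2a (124, 164 and 148 TPM) and Mki67 (72.5, 81.7 and 90.1 TPM). Cdkn2a, the locus of the cell cycle inhibitor p16 and of Arf, had 732, 728 and 793 TPM and ranked 162 of all genes. The receptor tyrosine kinase Axl had 484, 466 and 571 TPM, cyclin D1 (Ccnd1) 260, 225 and 362 TPM, and Myc 112, 151 and 160 TPM. The tumor suppressor genes Trp53 and Rb1 stood at 52.9, 51.7 and 64.0 TPM and 12.4, 12.4 and 13.9 TPM. Yap1, the effector of the Hippo pathway, was the exception to this evenness and is described with the spread below.

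Matrix genes had the largest summed level of the 35 gene lists. The 28 members summed to 17804, 22126 and 17968 TPM, and 22 of them exceeded 100 TPM in every tumor. Fibrillar collagens led, with Col1a2 at 2088, 2716 and 2257 TPM and Col3a1 at 1413, 1552 and 1371 TPM. Chains of the basement membrane collagen IV differed more, as Col4a1 had 410, 833 and 342 TPM and Col4a2 362, 692 and 302 TPM, both highest in 22R. The matrix-degrading enzymes Mmp14 (678, 633 and 756 TPM) and Mmp9 (612, 676 and 637 TPM) were even, whereas Mmp3 (73.9, 14.9 and 63.2 TPM) and the inhibitor Timp3 (90.9, 28.8 and 86.6 TPM) were low in 22R.

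All 14 fibroblast markers exceeded 1 TPM in every tumor, among them Postn (1128, 1767 and 1034 TPM), Pdgfra (119, 180 and 111 TPM) and, at the low end, Fap (6.30, 10.3 and 5.99 TPM). Since mesenchymal cancer cells can make the same products, the share of these genes that came from host fibroblasts was not tested. Endothelial genes summed to 754, 999 and 621 TPM, with the VE-cadherin gene Cdh5 at 143, 327 and 112 TPM and Pecam1 at 56.3, 97.8 and 50.4 TPM. Pericyte genes followed, with Rgs5 at 80.9, 132 and 69.3 TPM and Pdgfrb at 54.8, 83.0 and 59.5 TPM. For neighbouring tissues, skeletal muscle creatine kinase Ckm had 6, 8 and 15 reads, the keratinocyte list summed to 8.28, 8.88 and 9.45 TPM, and 9 of 15 muscle genes were under 1 TPM in every tumor.

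Among the lists of leukocyte types, the macrophage list had the largest summed level. The lists differ in the genes they hold, so their sums do not measure the share of leukocyte RNA that each cell type made. The 14 macrophage markers each exceeded 10 TPM in every tumor and summed to 11001, 9382 and 12364 TPM, against 163, 101 and 146 TPM for 20 T cell genes and 157, 105 and 146 TPM for 16 NK and cytotoxic genes. C1qa, C1qb and C1qc, the subunits of complement C1q, had means of 1896, 1410 and 743 TPM. Csf1r, through which colony-stimulating factor 1 keeps macrophages alive, had 394, 352 and 436 TPM, and its ligands Csf1 and Il34 had 170, 156 and 217 TPM and 138, 173 and 118 TPM. The means of the 10 pan-leukocyte genes ran from 23.1 TPM for the phosphatase gene Ptprc to 410 TPM for the adaptor gene Tyrobp, and 5 of them exceeded 100 TPM in every tumor. Among state markers, Apoe, Selenop (746, 765 and 773 TPM) and the mannose receptor Mrc1 (127, 140 and 190 TPM) were high, and Arg1 (3.57, 13.3 and 20.7 TPM), Nos2 (5.70, 9.60 and 5.31 TPM) and Il10 (0.641, 1.36 and 1.72 TPM) were low.

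Lists of other leukocyte classes had lower sums, with 663, 693 and 926 TPM for 14 dendritic cell genes. Cd3e of the T cell receptor complex had 4.95, 3.12 and 4.61 TPM, Cd8a 10.3, 6.18 and 5.71 TPM, Cd4 4.97, 4.20 and 6.00 TPM and Foxp3, the factor of regulatory T cells, 1.97, 1.30 and 3.26 TPM. The NK receptor gene Ncr1 had 4.61, 3.43 and 4.96 TPM, with the cytotoxic genes Gzmb at 5.59, 5.40 and 9.59 TPM and Prf1 at 5.82, 3.66 and 5.60 TPM. Of 14 neutrophil genes, 10 were under 1 TPM in every tumor, and S100a8 was read 10, 17 and 21 times. No read of Ly6g was counted in any tumor, which allows up to 0.149 TPM in tumor 19. Antibody genes were the exception among lymphoid transcripts, with the light chain constant region Igkc at 1300, 754 and 1666 TPM and the heavy chain Ighm at 819, 189 and 1196 TPM, beside 0.309, 0.909 and 0.423 TPM of the B cell surface gene Ms4a1.

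The molecules on which the treatments of the series act were present in the vehicle-treated tumors. Tmem173, which encodes STING, had 102, 102 and 122 TPM, and the kinase Tbk1 and the factor Irf3 downstream of it had 56.5, 70.2 and 61.1 TPM and 26.2, 24.5 and 29.0 TPM. Ifnb1 was read 1, 0 and 1 times. Interferon receptor chains Ifnar1 and Ifnar2 stood at 61.7, 64.1 and 72.0 TPM and 55.6, 59.0 and 62.2 TPM. All 22 interferon-stimulated genes exceeded 1 TPM in every tumor with a median of 34.2 TPM, led by Bst2 (566, 428 and 543 TPM) and Cxcl10 (88.7, 77.9 and 119 TPM). Il15 and Il15ra had 7.53, 8.26 and 8.22 TPM and 6.69, 4.94 and 8.52 TPM, and the shared receptor chains Il2rb and Il2rg 27.2, 18.2 and 23.9 TPM and 52.7, 50.1 and 45.2 TPM. Among suppressive signals Lgals1 was far the highest, Tgfb1 had 62.4, 71.6 and 76.1 TPM, and the checkpoint ligand Cd274 had 7.33, 5.38 and 8.49 TPM. The monocyte-attracting chemokines Ccl2 (389, 423 and 516 TPM) and Ccl7 (149, 177 and 217 TPM) were well above the neutrophil-attracting Cxcl1 (5.55, 10.6 and 9.10 TPM) and Cxcl5 (0.225, 0.159 and 3.50 TPM).

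**Figure D3:**
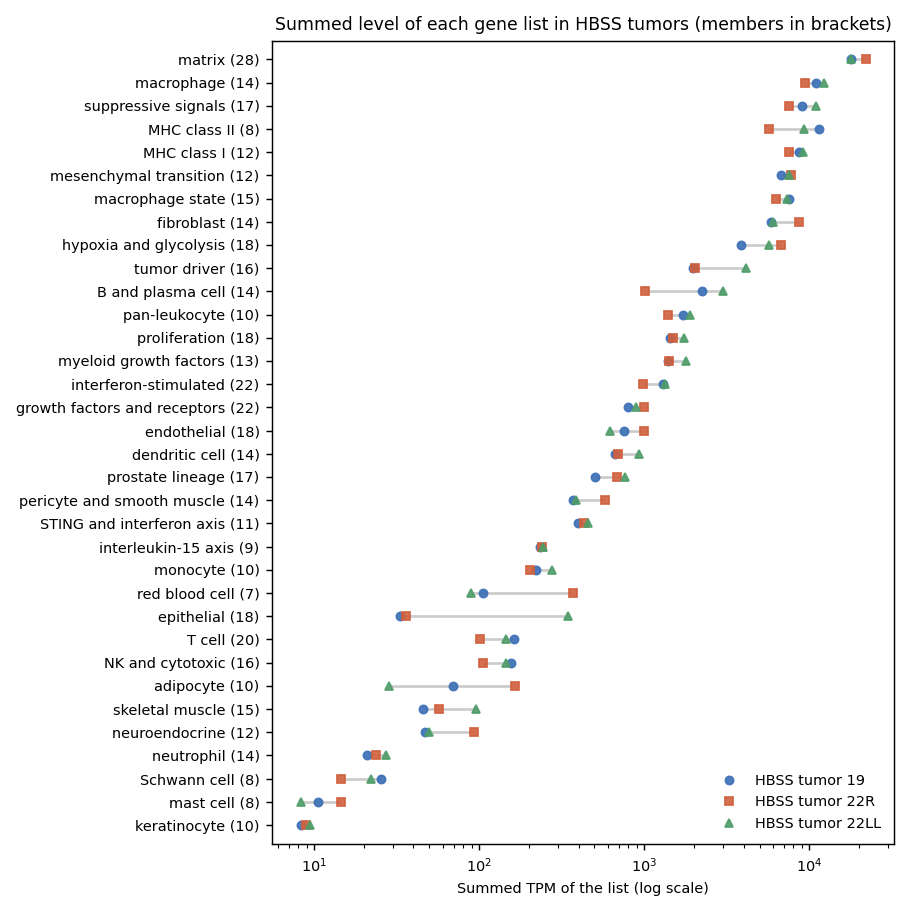
Summed TPM (log axis) of 34 gene lists in each HBSS tumor, with the number of members in brackets and a grey line spanning the 3 values. Matrix and macrophage genes lie near the top and neutrophil, mast cell and keratinocyte genes at the bottom, and the epithelial list is shifted in tumor 22LL.

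The 3 tumors were close to each other across most genes. Pearson's r across 12737 protein-coding genes with a mean of at least 1 TPM, on log2(TPM + 0.1), was 0.983 for 19 and 22R, 0.979 for 19 and 22LL and 0.969 for 22R and 22LL, as a description across genes, which are not independent replicates. The median coefficient of variation was 0.126, against 0.0198 that counting error alone would give. The common biological coefficient of variation was 0.208, beside 0.456 among cyto-IL-15, 0.236 among ADU-S100 and 0.463 among combination tumors. In 798 genes (6.27%) the highest tumor exceeded the lowest by more than 2 times. Tumor 22LL was more than 2 times above both others in 129 genes and 22R in 119, against 19 for tumor 19. Downward, 22R was more than 2 times below both others in 109 genes, 19 in 45 and 22LL in 28.

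Tumor 22LL stood apart by large values of a small number of genes, among them 3 keratins. By the rule for named genes, the 10 largest coefficients of variation at a mean of at least 10 TPM were all due to 22LL. Yap1, at position chr9:7931999-8004596 on the minus strand (GRCm38), had 40.2, 48.8 and 1814 TPM, which made it the fourth gene by variation and rank 195 of all. Besides Krt14, Krt19 and Krt8, the set held the urothelial and mesothelial gene Upk3b (0.0793, 0.0958 and 41.2 TPM), Sprr1a (4.11, 22.9 and 105 TPM), a component of the cornified envelope, and Serpinb9b (3.41, 7.61 and 58.5 TPM). A further 3, Shoc2 (47.7, 53.6 and 608 TPM), Bbip1 (19.4, 19.2 and 190 TPM) and Pdcd4 (36.2, 35.9 and 245 TPM), adjoin each other on chromosome 19. With Rbm20 (0.137, 0.137 and 3.63 TPM) they formed a run of 4 neighbouring genes at chr19:53677306-54033268 that was more than 2 times above both other tumors. Msln, the mesothelial surface protein mesothelin, which was chosen after its values were seen, had 56.8, 57.1 and 338 TPM.

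The largest ratios of the highest to the lowest tumor at that mean added Cfd (35.2, 70.8 and 3.51 TPM), the adipocyte protease adipsin, the matrix gene Fmod (9.58, 2.11 and 32.2 TPM) and the growth factor Igf2 (8.93, 1.79 and 27.0 TPM). In 65 genes 22LL was more than 4 times above both others. Of these, 60 (92.3%) were also more than 4 times above tumors 19 and 22R in the cyto-IL-15 tumor 13, and 33 (50.8%) in the combination tumor 28LL, whereas 2.05% and 4.24% of all 12737 genes were. In the other 7 treated tumors the count was 3 to 10 (4.62% to 15.4%), beside 0.275% to 0.950% of all genes. The 65 genes were chosen as low in 19 and 22R relative to 22LL. Those 2 tumors were also the reference here, so part of each excess over all genes is built in. Yap1 stood at 12008 TPM in tumor 13 and 331 TPM in 28LL. Krt19 had 820 TPM in tumor 13, above its level in 22LL, and Krt14 had 87.5 TPM, below it. Shared cells or libraries between these tumors were not tested.

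Tumor 22R differed in hypoxia, vessel and immune genes. All 18 hypoxia and glycolysis genes were lowest in tumor 19 and 17 of 18 were highest in 22R, while 60.4% of all 12737 protein-coding genes were lowest in 19 and 37.9% highest in 22R. The list deviated by -0.43, 0.36 and -0.04 log2 units from the 3-tumor mean. Bnip3, a mitochondrial protein induced by low oxygen, had 26.5, 126 and 50.4 TPM, the glucose transporter Slc2a1 35.6, 107 and 56.0 TPM, and the prolyl hydroxylase Egln3 67.9, 180 and 110 TPM. Pdk1, a kinase that inhibits pyruvate dehydrogenase, had 7.44, 48.9 and 14.9 TPM, and Adm, the vasodilator adrenomedullin, 12.5, 42.5 and 14.9 TPM. The enzymes of glycolysis differed less, with Pgk1 at 508, 1038 and 771 TPM and Ldha at 308, 581 and 498 TPM.

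Hypoxia-inducible factors bind DNA at elements that often hold the letters ACGTG, and promoters of these genes are shown because the list moved together. ACGTG on either strand was searched in windows from 250 bases before to 50 after the start of each gene (RefSeq, GRCm38.p6). It was held by 19.6% of all 32851 windows and by a window of 21.8% of all 27025 genes. Of the 17 list genes matched, 13 had a window that held it, some of them with several windows, and Pdk1, Adm, Eno1 and Tpi1 had none. A match is a description of these letters and not a binding site. The 3 promoters below, with the match in capitals, are those of the genes with the largest ratio of 22R to the mean of the others among the 13, chosen after these values were seen, at chr7:138909457-138909756 on the minus strand, chr4:119108495-119108794 on the plus strand and chr12:54203825-54204124 on the minus strand. In Bnip3 the matches of both strands overlap.
Bnip3: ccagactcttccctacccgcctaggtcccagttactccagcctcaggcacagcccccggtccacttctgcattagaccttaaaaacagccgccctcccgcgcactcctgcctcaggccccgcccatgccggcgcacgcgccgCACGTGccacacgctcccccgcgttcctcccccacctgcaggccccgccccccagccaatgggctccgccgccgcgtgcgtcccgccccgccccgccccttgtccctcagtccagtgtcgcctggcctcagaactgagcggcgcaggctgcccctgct
Slc2a1: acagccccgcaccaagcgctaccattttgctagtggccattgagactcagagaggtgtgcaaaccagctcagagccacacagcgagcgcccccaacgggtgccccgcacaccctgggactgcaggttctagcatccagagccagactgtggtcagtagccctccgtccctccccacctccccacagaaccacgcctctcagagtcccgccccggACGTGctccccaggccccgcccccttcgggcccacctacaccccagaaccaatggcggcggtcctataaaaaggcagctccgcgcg
Egln3: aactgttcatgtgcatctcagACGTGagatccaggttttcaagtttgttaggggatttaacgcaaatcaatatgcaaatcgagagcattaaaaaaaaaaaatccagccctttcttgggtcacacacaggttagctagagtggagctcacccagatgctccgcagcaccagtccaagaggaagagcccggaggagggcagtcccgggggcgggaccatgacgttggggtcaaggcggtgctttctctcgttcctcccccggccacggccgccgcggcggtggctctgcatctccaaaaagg

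Many vessel and blood genes were also high in 22R. Of the endothelial list, 13 of 18 genes were highest in 22R and 13 were lowest in 22LL, beside 37.9% and 13.1% of all 12737 genes. The other 5 endothelial genes went the opposite way and were lowest in 22R, beside 26.5% of all genes. Of the pericyte and smooth muscle list, 10 of 13 genes with a mean of at least 1 TPM were highest in 22R. The hemoglobin genes Hbb-bs (52.2, 192 and 41.3 TPM) and Hba-a1 (30.9, 104 and 32.2 TPM) stood over 3 times higher in 22R than in the others. Adipocyte genes were also spread widely, at 0.33, 1.46 and -1.79 log2 units. Of these, Fabp4, a fatty acid carrier of adipocytes and capillaries, had 15.5, 69.1 and 13.4 TPM, and Adipoq, the adipocyte hormone adiponectin, 3.58, 5.57 and 0.184 TPM. The vessel, blood, fat and hypoxia lists thus shared their highest median deviation in 22R but not the order of the other tumors. The hypoxia list was lowest in tumor 19 (-0.43). The endothelial (-0.33), red blood cell (-0.94) and adipocyte (-1.79) lists were lowest in 22LL. The part that admixed tissue had in these differences was not tested.

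Many immune genes, though not every immune list, were lowest in 22R. All 8 genes of the MHC class II list were highest in tumor 19 and lowest in 22R, beside 8.66% and 26.5% of all genes. They included Ciita, the activator of MHC class II genes (22.5, 12.2 and 21.1 TPM). Ctss is counted both in this list and in the macrophage list. H2-Ab1 and H2-Eb1, chains of the presenting molecule, had 1685, 743 and 1290 TPM and 2409, 1071 and 1829 TPM. All 10 pan-leukocyte genes, 12 of 14 macrophage, 12 of 13 dendritic cell, 18 of 20 T cell, 14 of 16 NK and cytotoxic and 20 of 22 interferon-stimulated genes were also lowest in 22R. In 22R the deviation was -0.59 log2 units for MHC class II, -0.54 for B and plasma cell, -0.49 for dendritic cell, -0.48 for T cell, -0.29 for macrophage and -0.28 for pan-leukocyte genes. Other immune lists did not share this order. Of 15 macrophage state genes 9 were lowest in tumor 19 and 4 in 22R (deviation of 22R -0.06), of 8 monocyte genes 3 were lowest in 22R (-0.02), and the 3 neutrophil genes with a mean of at least 1 TPM deviated by 0.37 in 22R. Of 9 B and plasma cell genes 6 were lowest and 3 highest in 22R. The antibody heavy chain genes went in opposite directions, as Ighm had 819, 189 and 1196 TPM and Ighg2c, chosen after its values were seen, 148, 302 and 72.5 TPM. Ccl8, a monocyte chemokine, had 320, 139 and 455 TPM. Among the lists that varied least were the mesenchymal transition list, within -0.01 to 0.07 log2 units, and the interleukin-15 axis, within -0.08 to 0.07.

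**Figure D4:**
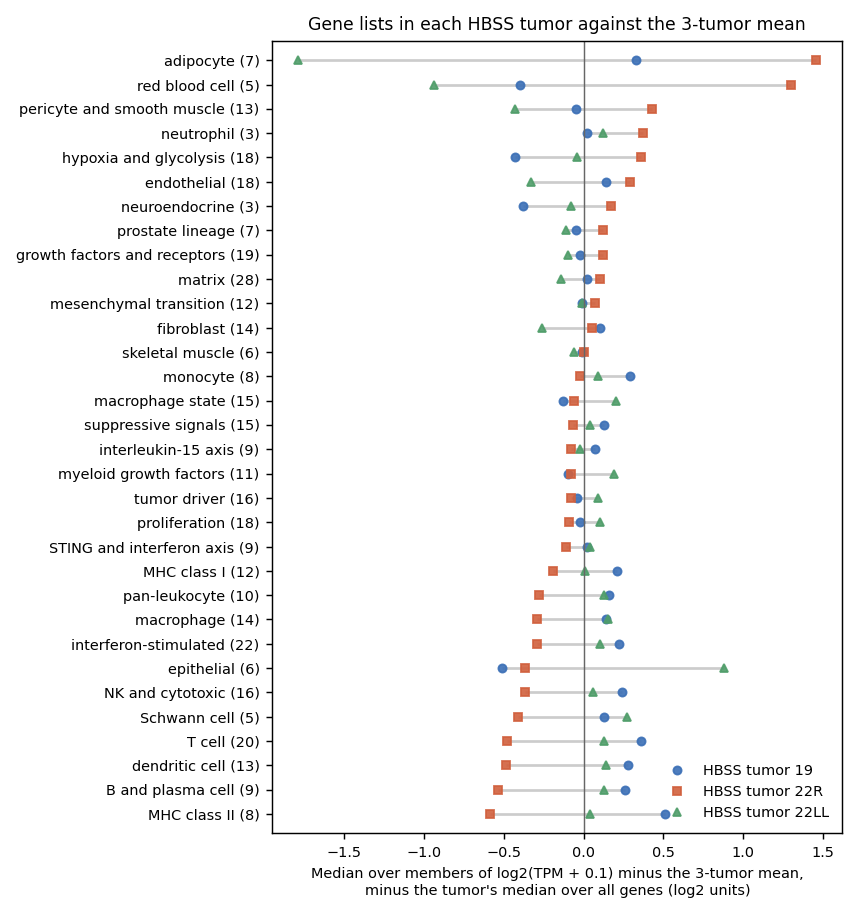
Median deviation of each list from the 3-tumor mean in log2 units, relative to the tumor's median over all genes, for lists with at least 3 members at a mean of 1 TPM, sorted by tumor 22R. In tumor 22R adipocyte, red blood cell and hypoxia lists lie to the right and MHC class II, B cell, dendritic cell and T cell lists to the left, with tumor 19 on the opposite side for MHC class II and hypoxia.

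Tumor 22R also carried a stretch of neighbouring genes raised together. In a search of all chromosomes for windows of 12 neighbouring protein-coding genes (mean at least 2 TPM) with at least 8 more than 1.4 times above, or below, both other tumors, the stretch at chr2:69647171-73337818 was found above in 22R. This stretch was extended while some of the next genes passed, and it was ended on a passing gene. It held 28 genes over 3691 kb, of which 26 passed the 1.4 times, beside 3.86% of 11961 genes overall. The median ratio of 22R to the mean of the others was 2.37 in the stretch, 1.02 over all genes, 1.15 in the 5 genes before it and 1.09 in the 5 after it. The stretch and its ends were chosen by these same values, so its excess over all genes and over the flanking genes is largely built in. Ssb, an RNA chaperone, had 223, 663 and 294 TPM, Ola1, an ATPase, 61.8, 256 and 88.9 TPM, and Hat1, a histone acetyltransferase, 38.8, 110 and 55.3 TPM. Itga6 (36.6, 51.4 and 52.0 TPM) and Gm26558 were the genes that did not pass. In 25 of the 28 genes 22R exceeded all 9 treated tumors. The share of all genes for which this held was not computed, and selection of the 28 as high in 22R favours such an excess. Pdk1 of the hypoxia list lies inside it, and without Pdk1 the list had 16 of 17 genes highest in 22R. The only other hit of the search, 12 genes of which 8 were low in tumor 19, lies within the same interval. DNA was not measured, and the search was set up after the values were seen.

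**Figure D5:**
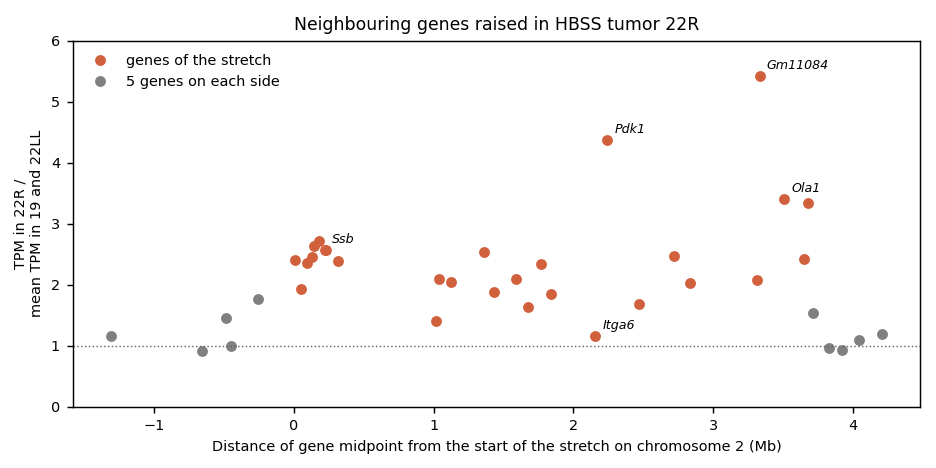
Ratio of TPM in tumor 22R to the mean of tumors 19 and 22LL (linear axis) for 28 neighbouring genes of chromosome 2 and the 5 genes on each side, against the distance of each gene's midpoint from the start of the stretch in Mb. The stretch has a median of 2.37, the flanking genes have medians of 1.15 and 1.09 around the dotted line at 1, and Itga6 is the lowest gene inside at 1.16.

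HBSS tumors were the reference of the series, and each treated group was set against them with edgeR's quasi-likelihood test on 6 tumors, with a gene called where its adjusted p was below 0.05 and it differed by over 1 log2 unit. All 3 comparisons share the HBSS tumors. Against cyto-IL-15, 0% of 18594 tested genes were called by edgeR (706 had an unadjusted p under 0.05, and DESeq2 called 115). Without cyto-IL-15 tumor 13, the tumor that shared the raised genes of 22LL, 179 were called. Against the combination, 0% of 18565 genes were called (3374 at an unadjusted p under 0.05, 1156 by DESeq2), and 247 without tumor 28LL. Against ADU-S100, 520 of 18911 genes were higher than in HBSS (2.75%) and 147 lower (0.777%). The count depended on each HBSS tumor, being 330 without 19, 325 without 22R and 335 without 22LL in both directions together, and it was 0 when 1 model was fitted to all 12 tumors.

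Relative to ADU-S100, the HBSS tumors were low in interferon and cytotoxic genes and high in some macrophage genes. Of 22 interferon-stimulated genes, 19 rose with ADU-S100 (median log2 difference 2.12, all genes 0.03), and 16 to 17 did so when an HBSS tumor was left out. Isg15, a ubiquitin-like modifier, averaged 69.3 TPM in HBSS and 532 TPM in ADU-S100 tumors (log2 fold change 2.97, SE 0.23, edgeR adjusted p = 0.00111). Of 16 NK and cytotoxic genes, 14 rose (median 1.85), and 10 to 12 without an HBSS tumor. Gzma averaged 8.47 against 193 TPM (log2 4.53, SE 0.33, edgeR adjusted p = 0.00111). Of 12 MHC class I genes 6 rose, including B2m, from 3574 to 7914 TPM.

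Of the 50 most abundant protein-coding genes of HBSS tumors, B2m rose and 2 fell, Lyz2 of the macrophage list and Apoe of the macrophage state list. The cells that made them were not identified. Lyz2 fell by 1.35 on the log2 scale (SE 0.12, edgeR adjusted p = 0.00116), with 4337, 4253 and 4798 TPM in HBSS against 1763, 1599 and 1740 TPM in ADU-S100 tumors. Apoe fell by 1.16 (SE 0.21, edgeR adjusted p = 0.0183), from 5882 to 2554 TPM. Both genes were called between these same tumors, so the absence of overlap between their groups adds no separate evidence. Selenop, Mrc1, Cd83 and Retnla of the macrophage state list also fell and Chil3 and Tnf rose, whereas Fcgr1 of the macrophage list and 6 of 10 monocyte genes rose. The macrophage list as a whole was level, with 1 of 14 genes called higher, 1 lower and a median log2 difference of -0.02. The macrophage state list of 15 genes had a median of -0.03, with 2 called higher and 5 lower. Of the skeletal muscle genes 7 of 15 rose (median 6.55), with Acta1 at 0.942, 1.05 and 1.26 TPM in HBSS and 148 to 1457 TPM in ADU-S100 tumors. Without tumor 19 or 22R 0 muscle genes were called, and without 22LL 1 was. The shift was not particular to ADU-S100. The median log2 difference from HBSS was 4.63 over 11 muscle genes for cyto-IL-15 and 7.65 over 15 for the combination, with no gene called in either. The part of muscle RNA in the differences of other genes was not tested. None of the 8 genes of the MHC class II list was called (median -1.95). The 28 matrix genes, the list with the largest summed level in the HBSS tumors, held no call (median -0.20). Of all tested genes 2.75% were called higher and 0.777% lower, so few calls would be expected in a list of this size.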

How the data were processed

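RNA of 12 TRAMP-C2 tumors was sequenced, of which the 3 given HBSS are described. The authors deposited whole-number counts of reads per Ensembl gene, 1 file per tumor, as featureCounts writes them. The submitters' processing notes name bcl2fastq 2.20, Trimmomatic 0.36, STAR 2.5.2b, featureCounts, Subread 1.5.2, DESeq2 and the builds GRCm38 and mm10. The strand setting, the handling of reads with several matches and the annotation release are not given in the sources used here (the study's supplementary methods were not used here), so overlapping, antisense and near-identical genes are uncertain (Trex1, listed at 0, among them). Of 49315 genes, 48970 received a symbol from GENCODE M21.

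TPM were computed from the counts and the gene lengths in the files, with 0.1 TPM added before log2. Totals of 61269250 to 89374663 reads set the counting precision, and a count of 0 was read as up to 3 reads. These limits cover counting error only. Groups were taken from the treatment labels. Comparisons used R 4.3.3 and edgeR 4.0.16 (TMM, filterByExpr with a minimum count of 10 and a minimum total of 15, robust quasi-likelihood fit, Benjamini-Hochberg adjustment), tested on simulated data, with DESeq2 1.42.0 as an alternative. P-values measure the spread between these tumors, which the labels do not tie to separate mice. Tables were made with Python 3.11.15.

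The tumors, 35 gene lists (489 of 491 entries found) and 14 families were chosen with earlier results of these data known. Named genes were the 30 protein-coding genes with the highest mean TPM, members of lists and families, the 10 with the largest coefficient of variation and the 10 with the largest ratio at a mean of at least 10 TPM, and called list members. Others are marked as chosen after their values were seen. Sensitivity was examined for the test, scaling, filter, gene set, threshold and each tumor. Some list members are counted in their lists but not reported here by name.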

Additional observations from a re-analysis of the deposited data

How the results depend on the processing

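Of the genes called between HBSS and cyto-IL-15 (0), DESeq2 gave 115, no filter on low counts 1 and leaving out a tumor 0 to 179. For ADU-S100 (667), DESeq2 gave 1123, 1 fit of all 12 tumors 0 and leaving out a tumor 325 to 624. For the combination (0), DESeq2 gave 1156, no filter 14 and leaving out a tumor 0 to 247. The cause of these changes was not tested. RLE factors moved none of the 3 counts by over 1.5 times. Of the 50 most abundant genes, 25 were shared with a ranking by CPM, which is not scaled by length. The biological coefficient of variation (0.208) was 0.261 with no filter and 0.188 to 0.234 without a tumor. Genes with over 2-fold range (798) numbered 355 at a mean of at least 5 TPM, 2354 at 0.1 TPM and 297 to 557 without a tumor, where fewer tumors span each range, the smallest number being without 22R. Of list members called against ADU-S100, skeletal muscle genes (7) numbered 0 to 13 without a tumor and 14 by DESeq2, T cell genes (3 higher) 0 to 4 without a tumor, and neutrophil genes (5) 2 without any HBSS tumor. Summed levels of 28 of 35 lists moved by more than their SD between TPM and CPM. In alternatives chosen after seeing the data, TMM-scaled CPM and protein-coding TPM moved no count of list members highest or lowest in a tumor by over 1.5 times, and the chromosome 2 stretch kept 26 of 28 genes by CPM and 24 at 1.5 times. No paired analysis was possible because no treated group shares more than 1 number with the HBSS tumors. The number 22 recurs in tumor names of the HBSS, ADU-S100 and combination groups, and the labels do not say whether it marks related mice. Depth limits the genes under about 0.1 TPM, which rest on few reads.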

Other observations

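Several short or non-coding genes had the same order of levels in the HBSS tumors. Gm23935, Gm24270 and Mir6236 had 109599, 49580 and 15827 TPM, 5741, 2177 and 941 TPM, and 2985, 1329 and 559 TPM in tumors 19, 22R and 22LL. The non-coding Gm42418 (6548, 3285 and 1575 TPM) and the mitochondrial leucyl-tRNA synthetase gene Lars2 (322, 177 and 69.1 TPM) had the same order. Whether the reads counted for these genes came from their own transcripts was not tested. Tumor 19 also stood apart in the growth regulator Ccn3 (206, 55.2 and 90.8 TPM), the neuronal ubiquitin hydrolase Uchl1 (44.1, 12.4 and 8.36 TPM) and Eln, which encodes elastin (24.3, 6.74 and 9.83 TPM).

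In tumor 22R the angiogenic genes Esm1 (14.5, 66.6 and 20.7 TPM) and Pgf (11.1, 67.1 and 17.2 TPM) stood above the others. So did Igfbp3 (197, 824 and 170 TPM), the metallothionein Mt2 (31.7, 111 and 35.7 TPM) and Angptl4 (33.2, 82.5 and 38.6 TPM). The Wnt ligands Wnt7b (23.1, 5.57 and 14.2 TPM) and Wnt9a (19.6, 5.04 and 19.0 TPM) were lower there. These genes were chosen after their values were seen.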
